A study of Homo sapiens with 12 samples.

Results

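Entinostat alone was compared with its solvent in A2058, an established line of human melanoma cells grown in DMEM with fetal bovine serum. The comparison took all 3 arrays labelled E, from cells given entinostat at 1 µM, and all 3 arrays labelled DMSO, 6 of the 12 arrays of the series, chosen by their titles and not by any measured value. The other 6 arrays carried dabrafenib at 100 nM with trametinib at 10 nM, either with entinostat at 1 µM (DTE, 3 arrays) or without it (DT, 3 arrays). They served to set the entinostat effect in DTE against DT beside that in E against DMSO. They also entered the estimate of spread behind the p-values and the rescaling of the arrays. The DT arrays set the bins of signal level. RNA from every group was taken 24 h after treatment began and hybridised to Affymetrix arrays. The sample titles speak of biological replicates and the series design of technical ones, so the p-values cover nothing beyond the array-to-array spread, and that spread may be technical.

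Entinostat is a benzamide that inhibits class I histone deacetylases. Such enzymes take acetyl groups off lysines of histones and other proteins, often within complexes such as NuRD, SIN3, NCoR and CoREST. Histone acetylation is laid down by acetyltransferases such as p300, CBP and the MYST family, and is a mark of active promoters and enhancers. In many cell lines such inhibitors raise a wide set of weakly transcribed, often tissue-restricted genes and lower genes of proliferation.

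All values are log2 intensities of 14580 genes, and a change is the E mean minus the DMSO mean. Called genes are those with an adjusted p under 0.05 in limma's moderated test. The E arrays had median gene values between 4.869 and 4.901, against 4.576 to 4.798 in the DMSO arrays, so the medians did not overlap. Counts are therefore also given after quantile normalization and after centring each array on its median, and the median change of all genes was 0.072 as deposited, -0.029 after quantile normalization and -0.127 after centring. The deposited table gives no background measure per probe set. A mean under the lower quartile of genes, at 3.115 in E and 2.981 in DMSO, was not shown to lie above background. Of 17 measured melanocyte lineage genes, 11 lay above the array median on all 6 arrays, among them SOX10, PMEL and TYR.

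Entinostat raised many more genes than it lowered on the deposited scale. It was followed by higher expression of 1825 genes (12.5% of those tested) and lower expression of 516 (3.54%). At least a 2-fold change was seen for 337 rises (2.31%) and 18 falls (0.123%), and 16 rises and 0 falls passed 4-fold. The median called rise was 0.637 and the median called fall -0.528. The balance between rises and falls depended on the scale, with 1410 higher (9.67%) and 1232 lower (8.45%) after quantile normalization, and 1098 higher (7.53%) and 2372 lower (16.3%) after median centring. Every count of list members below is to be read beside these shares over all genes. At least 2-fold, 204 rose (1.4%) and 27 fell (0.185%) after quantile normalization, and 176 rose (1.21%) and 50 fell (0.343%) after centring. On all 3 scales 1060 genes were called higher and 514 lower, and 0 genes were called in opposite directions. Without the second DMSO array the genes called lower numbered 303. In all, 3255 genes (22.3%) had every E array above every DMSO array and 1450 (9.95%) every E array below, including 1794 of the called rises and 504 of the called falls. In such bulk samples, fewer cells of a type and less RNA per cell cannot be told apart.

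**Figure D1:**
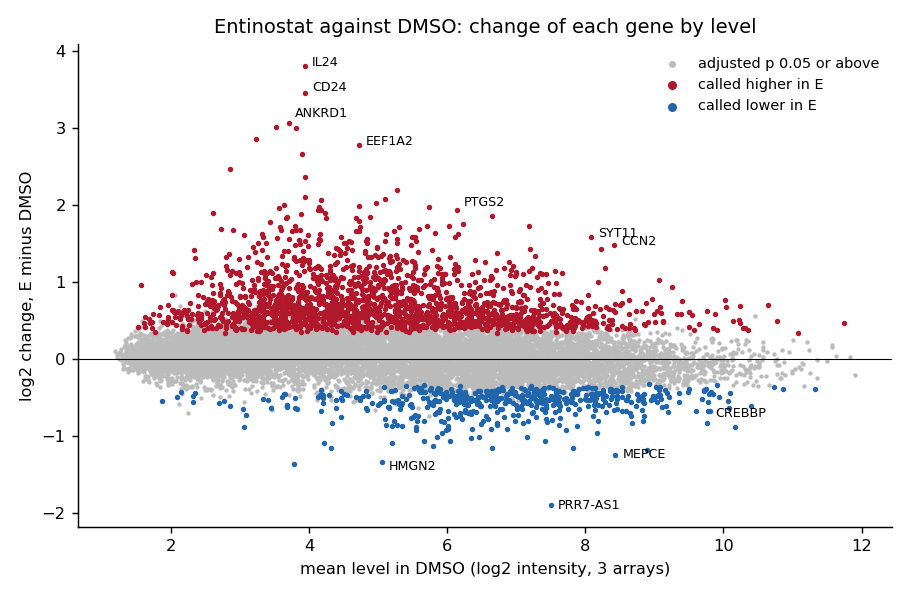
Change of each of 14580 genes (E mean minus DMSO mean, log2, vertical axis) against its mean level in the 3 DMSO arrays (log2 intensity, horizontal axis). Genes called higher are red (1825), genes called lower blue (516) and the others grey, on the deposited scale; the largest rises start from low and middle levels, whereas the called falls lie mostly at middle and high levels.

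On the deposited scale the called rises peaked in share among genes of middle signal. With genes put in 10 equal bins by their level in the DT arrays, which enter neither group of this comparison, 2.54% were called higher in the dimmest bin, 21.2% in bin 5 and 7.2% in the brightest. After quantile normalization the shares were 1.99%, 12.3% and 9.6%. Genes called lower made up 0.412% of the dimmest bin and 9.33% of the brightest, or 15.3% of the brightest after quantile normalization and 38.3% after median centring. The 2-fold rises followed the same pattern, with 4 in the dimmest bin, 74 in bin 5 and 6 in the brightest. Of the 337, 179 had a DMSO mean under the median gene and 21 a DMSO mean under the lower quartile.

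The largest rises joined secreted factors, surface proteins and genes usually restricted to nerve, muscle, skin or liver. IL24, a cytokine of the interleukin 10 family, measured 7.76, 7.62 and 7.82 in the E arrays, against 4.47, 3.55 and 3.78 in the DMSO arrays. Its E arrays were tight and its DMSO arrays scattered, with no overlap, and the change was 3.80 ± 0.18 (SE, adjusted p = 2.99e-10), a 14.0-fold rise. CD24, a surface glycoprotein anchored by lipid, measured 7.27, 7.40 and 7.48 in the E arrays, against 3.91, 3.70 and 4.20 in the DMSO arrays. The groups stood far apart and the rise was 3.45 (adjusted p = 7.17e-11), although CD24 has near-identical pseudogene copies that its probe set may also detect. ANKRD1, an ankyrin repeat protein of heart muscle and a target of YAP, had 6.66, 6.66 and 6.98 in the E arrays and 3.65, 3.90 and 3.57 in the DMSO arrays. KIF5C, a kinesin heavy chain of neurons, had 6.60, 6.70 and 6.28 in the E arrays and 3.43, 3.43 and 3.68 in the DMSO arrays. Both rose about as much, by 3.06 and 3.01, with every E array above every DMSO array.

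BMP6, a bone morphogenetic protein, measured 6.74, 6.80 and 6.87 in the E arrays, against 4.18, 3.08 and 4.17 in the DMSO arrays. The second DMSO array was lower than the other two by about a log2 unit, and no E array came near any of them. Its rise was 2.99 ± 0.23 (SE, adjusted p = 7.95e-08). KRTAP2-3, a hair keratin-associated protein from a family of close copies, stood at 6.29, 5.79 and 6.16 in the E arrays and 3.06, 3.35 and 3.28 in the DMSO arrays, a rise of 2.85 that other family members may share. EEF1A2, the translation elongation factor isoform of neurons and muscle, stood at 7.61, 7.47 and 7.39 in the E arrays and 4.70, 4.88 and 4.57 in the DMSO arrays. The rise of 2.77 set all E arrays more than 2 log2 units above any DMSO array. COLEC12, a scavenger receptor of the collectin family, rose by 2.66 and CREB3L3, a membrane-bound transcription factor of liver, by 2.36. MYOZ2, a protein of the muscle Z-disc, rose by 2.47, but its DMSO mean of 2.85 lay under the lower quartile, so the size of that rise is uncertain.

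Others of the 30 largest rises had higher starting signals. JUP, the plakoglobin of desmosomes and adherens junctions, measured 7.49, 7.34 and 7.53 in the E arrays, against 5.28, 5.32 and 5.19 in the DMSO arrays. That made a rise of 2.19, or 4.56-fold, with little spread in either group. PTGS2, the inducible cyclooxygenase of prostaglandin synthesis, measured 8.04, 7.98 and 8.18 in the E arrays, against 6.11, 6.22 and 6.07 in the DMSO arrays, a rise of 1.93. HPSE, the heparanase that cleaves heparan sulfate, rose by 1.99 and GRB14, an adaptor of the insulin receptor, by 2.11. EFNA3, an ephrin ligand, rose by 2.06 and SCAMP5, a protein of secretory vesicles, by 2.03.

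**Figure D2:**
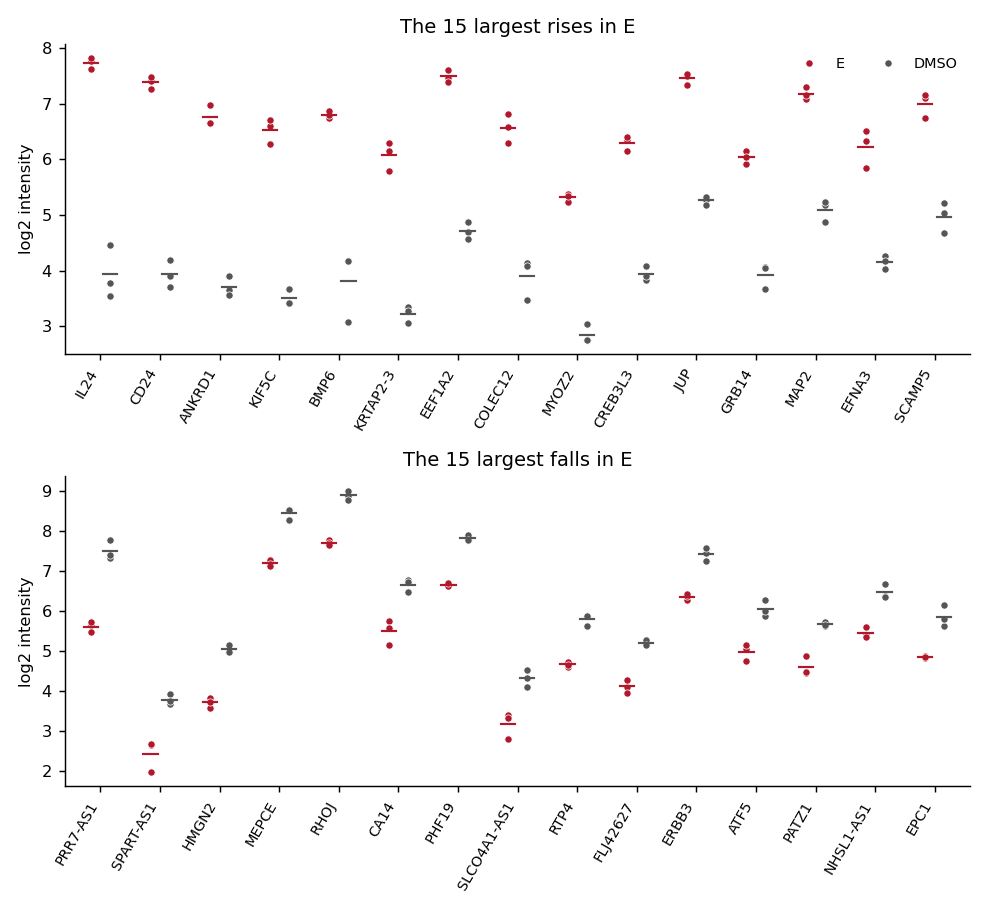
Log2 intensity of each array for the 15 largest rises and the 15 largest falls among called genes whose groups did not overlap. Each point is 1 array, E in red and to the left, DMSO in grey and to the right, the short line is the group mean, and for every gene the 3 E points lie wholly on one side of the 3 DMSO points.

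The promoters of the strongest responders are shown because the drug acts on chromatin at such regions. Of the 6 largest rises, 4 have a single listed transcription start, while CD24 has 3 and KIF5C 2 and their promoters are not shown. The sequences are from RefSeq on GRCh38.p14, read 5′ to 3′ on the gene's own strand, and run from 250 bases before the start to 50 after it. Capitals mark CG dinucleotides.
IL24 promoter, chr1:206897193-206897492, plus strand: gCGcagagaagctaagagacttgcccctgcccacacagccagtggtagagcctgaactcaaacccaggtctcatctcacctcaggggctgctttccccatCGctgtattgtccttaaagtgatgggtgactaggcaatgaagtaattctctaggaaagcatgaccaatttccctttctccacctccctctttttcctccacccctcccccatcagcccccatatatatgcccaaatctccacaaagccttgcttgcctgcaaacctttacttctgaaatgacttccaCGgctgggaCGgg
ANKRD1 promoter, chr10:90921038-90921337, minus strand: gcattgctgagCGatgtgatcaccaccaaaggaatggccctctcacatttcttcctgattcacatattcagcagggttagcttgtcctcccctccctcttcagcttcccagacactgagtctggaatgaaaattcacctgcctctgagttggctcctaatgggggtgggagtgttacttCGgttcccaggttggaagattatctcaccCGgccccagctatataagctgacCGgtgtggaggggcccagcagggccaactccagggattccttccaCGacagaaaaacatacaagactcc
BMP6 promoter, chr6:7725849-7726148, plus strand: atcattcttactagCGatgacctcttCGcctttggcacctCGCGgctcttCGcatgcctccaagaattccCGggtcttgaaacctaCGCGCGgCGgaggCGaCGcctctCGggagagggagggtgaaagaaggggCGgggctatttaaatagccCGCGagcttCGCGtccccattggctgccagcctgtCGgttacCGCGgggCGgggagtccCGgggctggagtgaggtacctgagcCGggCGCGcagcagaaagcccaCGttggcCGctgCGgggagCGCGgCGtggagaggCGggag
KRTAP2-3 promoter, chr17:41060065-41060364, minus strand: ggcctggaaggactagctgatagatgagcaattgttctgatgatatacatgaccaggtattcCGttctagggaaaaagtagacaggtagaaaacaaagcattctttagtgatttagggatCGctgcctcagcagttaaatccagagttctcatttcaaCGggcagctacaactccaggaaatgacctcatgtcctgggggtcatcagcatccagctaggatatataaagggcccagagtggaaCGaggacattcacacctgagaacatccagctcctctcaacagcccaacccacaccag
The BMP6 window held 33 CG dinucleotides and matches to GGGCGG and CCAAT. IL24 held 4, ANKRD1 5 and KRTAP2-3 4, so these 3 windows were poor in CG. Among the motifs searched, IL24 matched CCAAT, ANKRD1 the AP-1 motif TGANTCA and KRTAP2-3 TATAAA. The motifs searched on both strands were the TATA box (TATAAA), the GC box (GGGCGG), the CCAAT box, the AP-1 motif (TGANTCA) and the cyclic AMP response element (TGACGTCA), and none of them contains another.

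Over the 7020 protein-coding genes with 1 listed start, the median window held 24 CG dinucleotides and 64.0% G and C, and 71.9% had an observed over expected CG ratio above 0.6. The 968 such genes called higher had medians of 28 and 68.7%, with 80.2% above that ratio, and held TATAAA in 7.54% and TGANTCA in 5.68%. The 190 that rose at least 2-fold had medians of 27.5 and 69.0%, with 73.7% above that ratio. TATAAA was found in 12.6% of their windows, against 8.8% of all, and TGANTCA in 8.95%, against 5.37%. GGGCGG was found in 69.5% against 64.0%. Of the 268 genes called lower, 85.4% were above the CG ratio, 5.97% held TATAAA and 4.48% held TGANTCA. These shares are descriptions without a test, and the sets also differed in signal, with median DMSO levels of 4.71 for the 2-fold rises, 7.08 for the falls and 5.34 for all 7020. The part of signal level in these shares was not tested.

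On the deposited scale the falls were fewer than the rises and, at least 2-fold, numbered 18. MEPCE, the methyltransferase that caps the 7SK RNA and with it holds back the elongation kinase P-TEFb, measured 7.27, 7.18 and 7.13 in the E arrays, against 8.51, 8.52 and 8.28 in the DMSO arrays. The groups were separated by about a log2 unit, with a change of -1.24 ± 0.12 (SE, adjusted p = 8.46e-07). PHF19, an accessory subunit of Polycomb repressive complex 2, measured 6.64, 6.63 and 6.70 in the E arrays, against 7.78, 7.90 and 7.76 in the DMSO arrays, and fell by 1.15 (adjusted p = 1.96e-06). EPC1, a scaffold subunit of the TIP60 acetyltransferase complex, measured 4.81, 4.87 and 4.84 in the E arrays, against 5.63, 6.14 and 5.80 in the DMSO arrays. It fell by 1.02 (adjusted p = 2.93e-05), and JADE2, a scaffold of the HBO1 acetyltransferase complex, fell by 0.96 (adjusted p = 0.000807). In both genes no E array reached the lowest DMSO array.

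ERBB3, a receptor for neuregulins, measured 6.27, 6.36 and 6.42 in the E arrays, against 7.45, 7.56 and 7.24 in the DMSO arrays, a fall of 1.07 with no overlap. RHOJ stood at 7.78, 7.70 and 7.64 in the E arrays and 8.88, 9.01 and 8.78 in the DMSO arrays, and fell by 1.18. ATF5, a stress-related bZIP factor, fell by 1.07, PATZ1, a POZ and zinc finger transcription factor, by 1.06 and RTP4, an interferon-induced chaperone of receptors, by 1.13. HMGN2, a nucleosome-binding protein, had 3.83, 3.57 and 3.73 in the E arrays and 5.04, 4.96 and 5.15 in the DMSO arrays, a fall of 1.34. HMGN2 has many pseudogene copies that its probe set may also detect. The largest fall of all called genes was in a noncoding transcript, PRR7-AS1, described with its neighbours in a later paragraph.

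Among the deacetylases themselves, transcripts of the class I enzymes moved little. HDAC2 measured 5.80, 6.21 and 6.02 in the E arrays, against 5.44, 5.68 and 5.24 in the DMSO arrays. The E arrays lay above the DMSO arrays by a small margin, and the rise of 0.56 (adjusted p = 0.0158) was lost without the third DMSO array or the second E array. HDAC1 stood at 0.31 (adjusted p = 0.0976), HDAC3 at 0.26 (adjusted p = 0.175) and HDAC8 at 0.22 (adjusted p = 0.445). Of 14 other deacetylases, sirtuins included, 3 were called higher and 0 lower, and 1 and 1 after quantile normalization and 3 and 3 after median centring. HDAC5, a class IIa enzyme, rose by 0.77 (adjusted p = 0.00121). HDAC11 rose by 0.59 and HDAC9 by 0.55, both calls lost after quantile normalization, and that of HDAC11 also without the third DMSO array. List counts of 3 or fewer could depend on single arrays, and such dependence is given mainly for larger counts.

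Of 26 subunits of deacetylase complexes, 4 were called higher, near the share over all genes, and 2 lower, and after median centring 1 and 5. The shares over all genes were 12.5% higher and 3.54% lower, and after median centring 7.53% and 16.3%. RCOR2, a CoREST scaffold, rose by 0.85 (adjusted p = 4.15e-05) and PHF21A, a reader in the same complex, by 0.45, a call lost after median centring and without the first or the third array of either group. KDM1A, its demethylase, rose by 0.48, a call lost without the first DMSO array, the first E array or after median centring. With the first DMSO array or the first E array left out, 1 subunit was called higher, and without the third array of either group 2 were. CHD3, a NuRD remodeller, fell by 0.68 (adjusted p = 0.000373) and BRMS1, a SIN3 complex member, by 0.53.

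Of 16 measured acetyltransferases and acetyl-lysine readers, 8 were called lower and 0 higher, with a median change of -0.379 where that of all genes was 0.072. After quantile normalization 9 were lower and after median centring 10, with 0 higher on both scales. CREBBP, which encodes CBP, measured 9.16, 9.04 and 9.13 in the E arrays, against 9.73, 9.87 and 9.75 in the DMSO arrays, a fall of 0.67 (adjusted p = 0.000471). EP300, which encodes p300, measured 8.60, 8.47 and 8.58 in the E arrays, against 9.04, 9.29 and 9.16 in the DMSO arrays, a fall of 0.61 (adjusted p = 0.00138). KAT6B, a MYST family enzyme, measured 6.17, 6.16 and 6.22 in the E arrays, against 6.83, 7.20 and 6.93 in the DMSO arrays, a fall of 0.80 (adjusted p = 0.000557). In all 3 genes every E array lay below every DMSO array, and in none did the gap reach a log2 unit. The other 5 called members changed by between -0.55 and -0.42. Without the first or the second DMSO array 5 of the 16 were called lower.

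**Figure D3:**
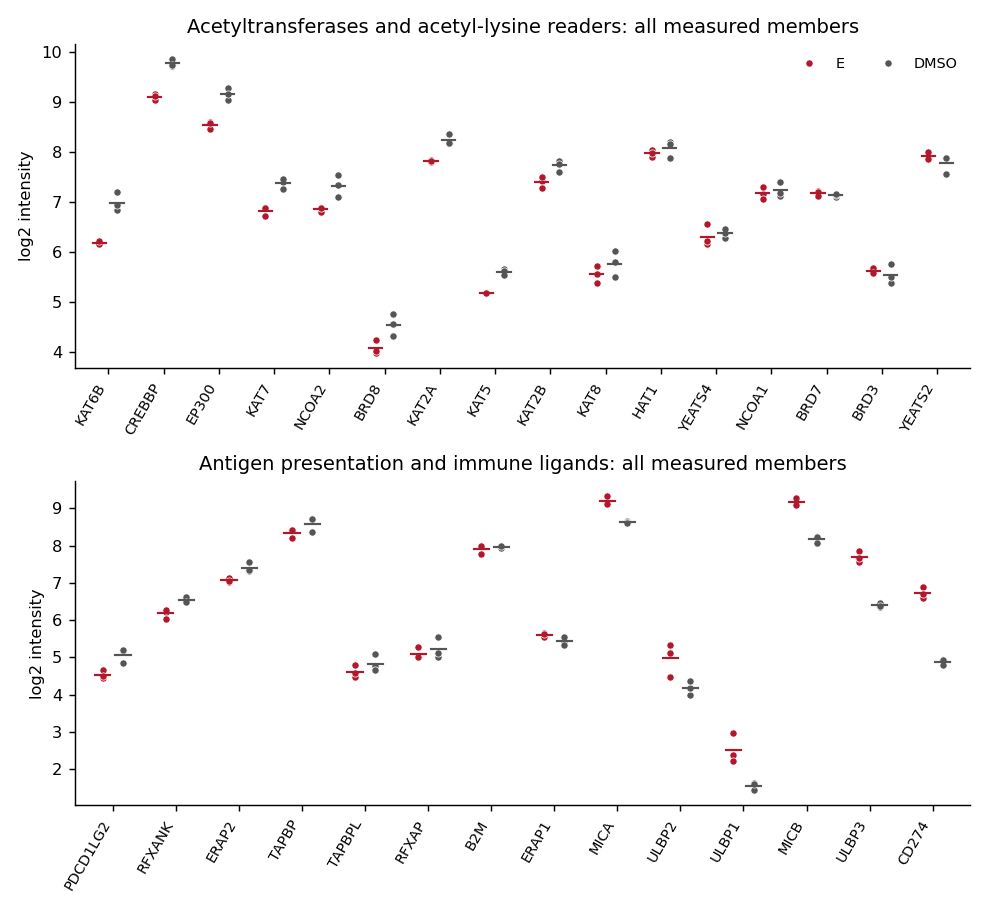
Log2 intensity of each array for all 16 measured acetyltransferases and acetyl-lysine readers and for all 14 measured genes of antigen presentation and immune ligands. E arrays are red and left, DMSO arrays grey and right, with a short line at each group's mean; for CREBBP, EP300 and KAT6B every E point lies under every DMSO point, and for CD274, ULBP3 and MICB every E point lies above.

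Of 39 methyltransferases and demethylases, 3 were called higher and 7 lower on the deposited scale, 4 and 16 after quantile normalization, and 3 and 22 after median centring. KDM1B, a demethylase of histone H3 lysine 4, measured 8.45, 8.40 and 8.51 in the E arrays, against 7.16, 7.52 and 7.33 in the DMSO arrays. The groups did not overlap, and the rise was 1.12 (adjusted p = 9.12e-06). KDM5B and KDM7A, also demethylases, rose by 0.74 and 0.59. SUV39H1, a methyltransferase of heterochromatin, fell by 0.74 (adjusted p = 0.00181) and PHF2, a demethylase, by 0.53. Of the 7 lower calls 4 were left without the second DMSO array and 3 without the third E array, and the higher calls numbered 5 without the second DMSO array.

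In 23 Polycomb and DNA methylation genes, 2 were called higher and 2 lower, and after median centring 0 and 7, PHF19 with the largest change. The higher calls were a smaller share than the 12.5% over all genes. EZH2, the Polycomb methyltransferase, stood at 0.08 and DNMT1, the maintenance DNA methyltransferase, at -0.15, neither called. In 18 genes of elongation control, 2 were called higher, near that share, and 2 lower, and after median centring 1 and 8. MEPCE fell, as given above, and EAF2, a partner of ELL elongation factors, rose by 0.86 (adjusted p = 0.000251). HEXIM1, the P-TEFb inhibitor that binds 7SK, rose by 0.36 (adjusted p = 0.039), a call lost after median centring and without any single E or DMSO array but the third DMSO array.

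Of 23 measured genes listed as raised by deacetylase inhibitors in many lines, 13 were called higher and 0 lower. The median of the 23 was 0.398, and 11 were higher after quantile normalization and 9 after median centring. Among all genes 12.5% were called higher and 3.54% lower as deposited. The list was drawn up with earlier results of these data known, so its counts are no independent test. HSPA2, a chaperone of the testis and brain, measured 7.68, 7.77 and 7.78 in the E arrays, against 6.12, 6.15 and 5.80 in the DMSO arrays, a rise of 1.72. SYT11, a synaptotagmin, measured 9.66, 9.64 and 9.68 in the E arrays, against 8.04, 8.23 and 7.96 in the DMSO arrays, a rise of 1.58 (adjusted p = 3.84e-08). Both groups were tight in both genes and did not overlap. CPA4, a carboxypeptidase first found as a gene induced by deacetylase inhibitors, rose by 1.66. CLU, the secreted chaperone clusterin, rose by 1.44 and DHRS2, a short-chain dehydrogenase, by 1.26. GSN, the actin-severing protein gelsolin, rose by 0.62 (adjusted p = 0.000739), and TXNIP, the thioredoxin inhibitor, stood at 0.19 (adjusted p = 0.459). Of 13 genes listed as lowered by such inhibitors, 8 were called lower and 0 higher, with a median of -0.486. The same limit holds for this list. CHEK1, a checkpoint kinase, fell by 0.85, and the cyclins CCNA2 and CCNB1 by 0.62 and 0.57.

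Genes of several neuronal lists were called higher. REST is the repressor that recruits deacetylases to neuronal genes outside the nervous system. It stood at 0.13 (adjusted p = 0.621). Of 29 measured genes known as its targets, 12 were called higher and 0 lower, with a median of 0.326, and 10 were higher after quantile normalization and 8 after median centring. Without single arrays the number was 8 to 12. Of 29 neuronal cytoskeleton and transport genes, 14 rose and 0 fell, with a median of 0.395, but 1 and 2 were called lower after quantile normalization and median centring. MAP2, a microtubule protein of dendrites, measured 7.09, 7.30 and 7.16 in the E arrays, against 5.19, 5.24 and 4.87 in the DMSO arrays, a rise of 2.08. All E arrays lay well over a log2 unit above the DMSO arrays. DPYSL5, of the collapsin response mediators, rose by 1.62. SEPTIN3, a neuronal septin that was not in this list, rose by 1.85.

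At the synapse, 16 of 47 genes were called higher and 0 lower, with a median of 0.279. After quantile normalization 13 were higher and 1 lower, and after median centring 13 and 2. SYN1, SYP and other members were also counted among the REST targets, so the counts of these lists are not separate. SYN1, synapsin of synaptic vesicles, measured 5.61, 5.10 and 5.51 in the E arrays, against 3.84, 3.41 and 3.98 in the DMSO arrays, a rise of 1.66 (adjusted p = 3.08e-06). UNC13A, which primes vesicles for release, was counted among the REST targets and not in the synapse list. It measured 5.24, 5.70 and 5.49 in the E arrays, against 3.64, 3.91 and 3.85 in the DMSO arrays, a rise of 1.67. Neither gene overlapped between groups. VGF, a secreted neuropeptide precursor, also counted among the REST targets and not in the synapse list, rose by 1.26. In the synapse list RIMS2, a scaffold of the active zone, rose by 1.32. Of 10 measured genes with HCN or KCN names, 2 rose and 0 fell. Accessory proteins such as KCNIP1 and noncoding transcripts such as KCNQ1OT1 were counted among them. The median was 0.121, or -0.0731 after quantile normalization and -0.0775 after median centring. On each of those scales 1 gene was higher and 1 lower. HCN2, a pacemaker channel, rose by 1.73. Of 14 neurotransmitter receptors 3 rose and 0 fell (median 0.193, or -0.00486 after median centring), with 2 higher on each of the other scales. Axon guidance genes split, with 15 of 46 higher and 3 lower (median 0.18, or -0.0186 after median centring). EFNB3, an ephrin, rose by 1.05 and PLXNA2, a semaphorin receptor, by 0.93. NRP1 and NRP2, the neuropilin co-receptors, fell by 0.48 and 0.65.

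Of 49 cadherins and protocadherins, 22 were called higher and 0 lower, with a median of 0.393. After quantile normalization 18 were higher and 0 lower, and after median centring 18 and 1. PCDH10 measured 5.77, 5.46 and 5.31 in the E arrays, against 3.71, 3.85 and 3.45 in the DMSO arrays, a rise of 1.84. PCDH17 measured 7.72, 7.84 and 7.76 in the E arrays, against 6.19, 6.21 and 6.05 in the DMSO arrays, a rise of 1.62. Both separated cleanly, and PCDH18 rose by 1.56. Of 33 claudins and tight junction genes, 7 rose and 1 fell (median 0.11, or -0.0882 after median centring). TJP3, a scaffold of tight junctions, rose by 1.57, JAM3, a junctional adhesion molecule, by 1.09 and CLDN4, a claudin of epithelia, by 1.07. Of 138 keratins and keratin-associated proteins, 7 were called higher and 0 lower, below the share over all genes, and 2 and 7 after median centring. Still as deposited, 3 or 4 were higher without the first or the third DMSO array or the second E array.

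**Figure D4:**
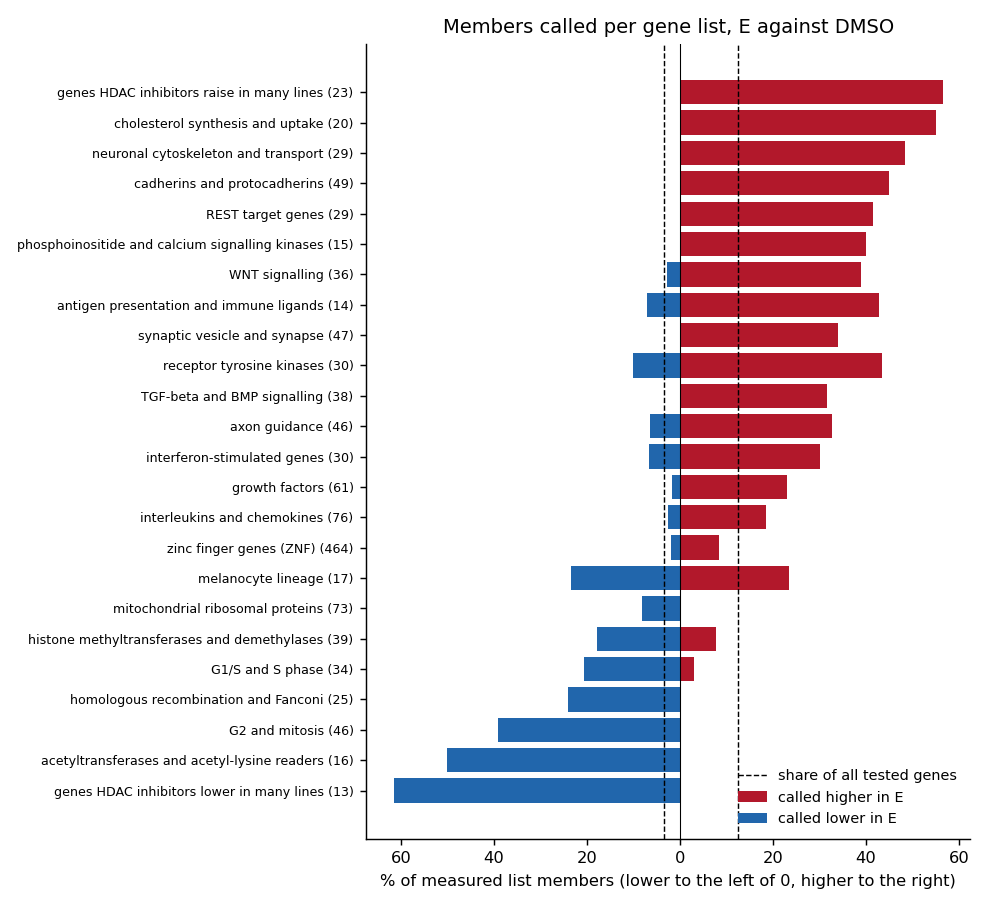
Share of measured members called lower (blue, left of 0) and higher (red, right of 0) in E against DMSO on the deposited scale, as percent of the members measured (number in brackets). The dashed lines are the shares over all 14580 genes, 3.54% lower and 12.5% higher; genes that inhibitors raise, neuronal cytoskeleton genes and cadherins extend furthest to the right with cholesterol genes, and acetyltransferases and mitotic genes far to the left.

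Of 76 interleukins and chemokines, some interleukin receptors included, 14 were called higher, 2 lower and 60 neither (median 0.123, or -0.0749 after median centring). Beside IL24, CXCL8, a neutrophil chemokine, measured 8.84, 9.06 and 8.82 in the E arrays, against 7.23, 7.22 and 7.11 in the DMSO arrays, a rise of 1.72. CCL2, a monocyte chemokine, went the other way, with 6.74, 6.38 and 6.77 in the E arrays and 7.35, 7.11 and 7.86 in the DMSO arrays, a fall of 0.81 (adjusted p = 0.00374). Neither chemokine overlapped between groups. Of 43 cytokine receptors and receptor antagonists 8 rose and 0 fell, among them IL17RB, IL17RD and IL21R by 1.40, 1.33 and 1.23. Without the first DMSO array 5 rose. IL21R was counted in both lists. In the TGF-beta and BMP list, 12 of 38 rose and 0 fell (median 0.153, or -0.0453 after median centring). GDF15, a stress-induced ligand, rose by 1.18, and BMP4 by 1.36 from a DMSO mean of 2.84, under the lower quartile.

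WNT genes were higher for 14 of 36 and lower for 1, with a median of 0.313. LGR4, a receptor for R-spondins, rose by 1.16, and the frizzled receptors FZD3 and FZD4 by 1.07 and 0.94. Of 26 NOTCH pathway genes, 9 rose and 1 fell, with a median of 0.272. HES7, a transcriptional target of NOTCH, rose by 1.50 and HEY2, another, by 1.21, whereas HEY1 fell by 0.51 (adjusted p = 0.0271). The HEY1 call was lost without the second or the third DMSO array or any single E array. NOTCH3, a receptor, measured 6.11, 6.19 and 6.26 in the E arrays, against 5.44, 5.40 and 4.83 in the DMSO arrays, with the third DMSO array lowest and a rise of 0.96. Hedgehog genes were called higher for 3 of 14 and lower for 0, namely the co-receptors CDON and BOC, by 1.09 and 0.67, and the effector GLI1, by 0.62.

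Growth factor genes were called higher for 14 of 61 and lower for 1, with a median of 0.218. PDGFB rose by 1.23, HBEGF, an EGF receptor ligand, by 1.10 and ANGPTL4, an angiopoietin-like protein, by 1.12. Of 30 receptor tyrosine kinases, 13 rose and 3 fell, with a median of 0.327. ERBB4, a neuregulin receptor, measured 5.76, 5.49 and 5.86 in the E arrays, against 4.15, 4.57 and 3.70 in the DMSO arrays. The lowest E array stood almost a log2 unit above the highest DMSO array, and the rise was 1.56 (adjusted p = 7.9e-06), while ERBB3 fell. FGFR1, an FGF receptor, rose by 1.19 and KIT, the stem cell factor receptor, by 0.80. AXL fell by 0.54, a call lost without the second E array, and the collagen receptor DDR2 by 0.51, a call lost without the first DMSO array or the second or the third E array. Without that E array 1 receptor tyrosine kinase was called lower.

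Of 21 genes of ERK pathway output, 6 rose and 1 fell, with a median of 0.258. DUSP5, a nuclear ERK phosphatase, measured 5.82, 5.55 and 5.46 in the E arrays, against 4.44, 4.13 and 3.79 in the DMSO arrays, a rise of 1.49. MYC stood at 0.12 (adjusted p = 0.553) and CCND1, which encodes cyclin D1, at 0.07 (adjusted p = 0.807), with overlapping arrays, and both were below 0 after median centring. Of 23 AP-1 and immediate early genes, 7 rose and 2 fell, and 4 rose without the first E array. JUN rose by 0.78, and FOSL1 fell by 0.56. Of 21 matricellular genes and YAP targets, 8 rose and 1 fell, and 5 rose without the third DMSO array and 4 without the third E array. CCN2, the connective tissue growth factor, measured 9.83, 9.98 and 9.88 in the E arrays, against 8.49, 8.38 and 8.37 in the DMSO arrays. It rose by 1.48, with both groups tight.

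Of 14 genes of antigen presentation and immune ligands, 6 were called higher and 1 lower, with a median of 0.0593 (-0.0301 after quantile normalization and -0.139 after median centring), close to that of all genes. On those other scales 5 were higher and 3 lower, and 5 and 4. CD274, which encodes PD-L1, measured 6.89, 6.59 and 6.69 in the E arrays, against 4.92, 4.93 and 4.80 in the DMSO arrays. No array was near the other group, and the rise was 1.84 ± 0.16 (SE, adjusted p = 3.18e-07), or 3.58-fold. PDCD1LG2, which encodes PD-L2, moved the other way, with 4.66, 4.45 and 4.50 in the E arrays and 5.18, 5.20 and 4.85 in the DMSO arrays, a fall of 0.54 (adjusted p = 0.00492). ULBP3, a ligand of the NKG2D receptor of natural killer cells, measured 7.85, 7.57 and 7.67 in the E arrays, against 6.36, 6.47 and 6.39 in the DMSO arrays, a rise of 1.29. MICB, another NKG2D ligand, measured 9.16, 9.10 and 9.27 in the E arrays, against 8.24, 8.22 and 8.07 in the DMSO arrays, a rise of 1.00. Both NKG2D ligands were separated in every array. The 3 remaining higher members were also NKG2D ligands, with rises of 0.58 to 0.96, ULBP1 among them with a DMSO mean under the lower quartile. B2M, the light chain of MHC class I, stood at -0.05, uncalled.

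Interferon-stimulated genes were called higher for 9 of 30 and lower for 2 (median 0.18, or -0.0187 after median centring), and higher for 5 without the first DMSO array or the second E array. OASL, an antiviral protein, rose by 1.13 and HERC6, a HERC family ubiquitin ligase, by 0.78. IFI44L rose by 1.00, with a DMSO mean of 2.98 under the lower quartile. MX2 and IFIT3, also antiviral, fell by 0.55 and 0.54, the call of IFIT3 being lost without the third DMSO or the second or the third E array.

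Of 44 kinesins 6 rose, near the share over all genes, and 3 fell. After quantile normalization 6 were higher and 8 lower, and after median centring 3 and 16. On the deposited scale 3 rose without the first or the third DMSO array or the first E array. KIF5C and KIF21B, both of neuronal transport, rose by 3.01 and 1.37, whereas the cell division kinesins KIF20A and KIF18B fell by 0.74 and 0.66. Of 15 phosphoinositide and calcium signalling genes, 6 rose and 0 fell, with a median of 0.248. CAMK2N1, an inhibitor of CaM kinase II, measured 6.19, 6.49 and 6.34 in the E arrays, against 4.81, 5.02 and 4.68 in the DMSO arrays, a rise of 1.50 with no overlap. Matrix proteases and inhibitors rose for 11 of 48 and fell for 2, with ADAM22, a disintegrin without protease activity, at 1.56.

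Among metabolic and housekeeping lists, the count of cholesterol genes depended on the scale and on single arrays. Of 20 genes of cholesterol synthesis and uptake, 11 were called higher and 0 lower, with a median of 0.41. After quantile normalization 8 were higher and 0 lower, and after median centring 5 and 2. As deposited, 6 rose without the first or the third DMSO array or the second or the third E array, and 7 without the first E array. STARD4, a carrier of cholesterol between membranes, measured 6.75, 7.11 and 6.98 in the E arrays, against 5.43, 5.72 and 5.25 in the DMSO arrays, a rise of 1.48 with no overlap. Of 73 mitochondrial ribosomal protein genes 6 fell and 0 rose, with a median of -0.128. After quantile normalization 15 were lower and after median centring 32. On the deposited scale 3 fell without the first or the third DMSO array or the first E array and 2 without the second E array. Of 12 clock genes, 5 rose and 1 fell, where BMAL1, the activator of the clock, rose by 1.10 and PER2, a repressor, fell by 0.73. Without the first or the third DMSO array or the third E array 2 clock genes rose, and without the first or the second E array 3.

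Of 46 genes of G2 and mitosis, 18 were called lower and 0 higher, with a median of -0.33. After quantile normalization and median centring 29 and 41 were lower. This list was bright too, with medians of 7.93 to 8.07 in the DMSO arrays. Lower calls made up 3.54% of all genes and 9.33% of the brightest bin as deposited, and 38.3% of that bin after median centring. The part of signal level was not tested. FOXM1, the transcription factor that drives mitotic genes, measured 7.95, 7.76 and 7.81 in the E arrays, against 8.66, 8.66 and 8.69 in the DMSO arrays. The groups lay far apart relative to their spread, with a fall of 0.83 (adjusted p = 4.67e-05). NDC80, of the kinetochore, fell by 0.83 and ESPL1, the separase, by 0.80. Of 34 genes of G1/S and S phase, 7 fell and 1 rose, with 4 falls without the second E array. After quantile normalization 11 were lower and 0 higher, and after median centring 20 and 0. CDC45, of the replicative helicase, fell by 0.65. Of 25 genes of homologous recombination and the Fanconi pathway 6 fell and 0 rose, with 10 lower after quantile normalization and 13 after median centring.

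Of 17 melanocyte lineage genes, 4 were called higher and 4 lower on the deposited scale (median -0.0873). After quantile normalization 2 were higher and 6 lower, and after median centring 1 and 7. MITF, the lineage's main transcription factor, measured 5.68, 5.66 and 5.76 in the E arrays, against 6.28, 6.67 and 6.18 in the DMSO arrays, a fall of 0.68 (adjusted p = 0.00396). TYR, the enzyme that starts melanin synthesis, fell by 0.53, while KIT and GPR143, a receptor of pigment cells, rose by 0.80 and 0.58, the call of GPR143 being lost after median centring. SOX10 stood at 0.12 (adjusted p = 0.576) and was below 0 after median centring. The higher calls numbered 2 without the third DMSO or the third E array, and the lower calls 2 without the second E array. In the neural crest list, 6 of 27 genes rose and 2 fell on the deposited scale, but 6 were higher and 6 lower after quantile normalization, and 5 and 6 after median centring. NGFR, the nerve growth factor receptor, rose by 1.15 and SOX2, a stem cell transcription factor, fell by 0.73.

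Of 197 SOX, PAX, POU, FOX and homeobox factors, 35 were called higher and 7 lower, a count of 20 to 23 higher without the first or the third array of either group, and of 2 to 4 lower without the second DMSO or the first or the third E array. After quantile normalization 16 were higher and 20 lower, and the median of 0.107 became -0.0509. LHX2 and POU4F1, both factors of neural development, rose by 1.06 and 1.04. Of 464 zinc finger genes 39 were higher and 9 lower, a smaller share than over all genes, and on the other 2 scales more were lower than higher. Without the third E array 25 were higher, and without the second DMSO array 5 were lower. Of 70 genes matched by names of cancer-testis and germ cell families, not all of them such antigens, 13 rose and 0 fell. Their median was 0.1, or -0.0982 after median centring. Over all genes 12.5% were called higher and 3.54% lower. After quantile normalization 8 of the 70 were higher and 3 lower, and after median centring 7 and 4. As deposited, 8 rose without the first DMSO array.

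Few genes moved out of the dim range. Of 3213 genes at or under the lower quartile in all 3 DMSO arrays, 131 were called higher. Only 35 of these exceeded the lower quartile in all 3 E arrays, and 0 exceeded the median gene. LRP2, the endocytic receptor megalin, measured 4.37, 4.35 and 4.49 in the E arrays, against 2.67, 2.85 and 2.65 in the DMSO arrays, a rise of 1.68. All 3 E arrays lay well over a log2 unit above the highest DMSO array. MMP12, the macrophage elastase, rose by 1.31, PTGER4, a prostaglandin E2 receptor, by 1.14 and TRPS1, a GATA-type repressor, by 1.06. MEIOC, a regulator of meiosis, rose by 0.98. The sizes of these changes are uncertain, since their DMSO means were not shown to lie above background. In the other direction 5 called genes went under the lower quartile in all 3 E arrays.

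Calls differed in share between kinds of gene, without a test of the difference. Of 11718 protein-coding genes 14.5% were called higher and 3.95% lower, of 1361 long noncoding RNAs 5.66% and 2.35%, and of 1018 microRNA genes 2.06% and 1.18%. The balance turned on the other scales for the noncoding kinds. Long noncoding RNAs were higher for 2.57% and lower for 5.73% after quantile normalization, and 2.57% and 10.9% after median centring. MicroRNA genes were higher for 0.688% and lower for 2.55% after quantile normalization, and 0.196% and 7.86% after median centring. Signal moved with these shares, with median DMSO levels of 5.25, 2.99 and 2.40, and its part was not tested. PRR7-AS1, an antisense transcript, measured 5.64, 5.71 and 5.46 in the E arrays, against 7.32, 7.77 and 7.40 in the DMSO arrays. It fell by 1.89 ± 0.14 (SE, adjusted p = 3.84e-08), or 3.71-fold, with a wide gap between groups. PRR7, the gene it is named after, stood at -0.00 (adjusted p = 0.996). SPART-AS1 fell by 1.36 to an E mean under the lower quartile, and SPART stood at 0.16, uncalled. Of 35 antisense transcripts called, 23 had a measured partner gene and 6 of those partners were called, 4 the same way and 2 the opposite way. Among all genes 12.5% were called higher and 3.54% lower, and whether partners differed from these shares was not tested. Of the 35, 22 were higher and 13 lower on the deposited scale, but over all 475 antisense transcripts 8 were higher and 38 lower after quantile normalization, and 8 and 61 after median centring. The 22 antisense rises numbered 9 without the third DMSO array, and the 13 falls 7 without the second DMSO array and 8 without the first E array. The 2 opposite pairs of transcript and partner were PARD6G-AS1 at -0.88 with PARD6G at 0.72, and PRRT3-AS1 at -0.38 with PRRT3 at 0.94. No source used here states whether the probe sets tell the strands apart.

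The array's microRNA probe sets carry the names of precursor genes, and 33 of these were called on the deposited scale, 21 higher and 12 lower. After quantile normalization 7 were higher and 26 lower, and after median centring 2 and 80. Of the 33, 13 had a DMSO mean under the lower quartile. Among 1037 genes with a microRNA name, whatever their biotype, 24 were higher and 14 lower, and 10 to 15 were higher without the first or the third DMSO or the first or the second E array, and 8 or 9 lower without the second DMSO or the second or the third E array. The mature sequences are shown for those named below, from RefSeq on GRCh38.p14, 5′ to 3′, with the seed (bases 2 to 8) in capitals.
hsa-miR-548f-3p, chr2:212426284-212426302, minus strand: aAAAACUGuaauuacuuuu
hsa-miR-4324, chr19:49308807-49308826, minus strand: cCCUGAGAcccuaaccuuaa
hsa-miR-30c-2-3p, chr6:71376964-71376985, minus strand: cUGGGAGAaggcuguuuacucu
hsa-miR-30c-5p, chr6:71377003-71377025, minus strand: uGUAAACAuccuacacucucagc
hsa-miR-4534, chr22:37988829-37988845, plus strand: gGAUGGAGgaggggucu
No 2 of these 5 seeds were alike. MIR548F2, within ERBB4, measured 3.37, 3.95 and 3.24 in the E arrays, against 2.63, 2.94 and 2.70 in the DMSO arrays. It rose by 0.77 (adjusted p = 0.00745), a call lost without the second E array, while its host ERBB4 rose by 1.56. Its DMSO mean lay under the lower quartile. MIR4324, within SLC6A16, measured 4.29, 4.77 and 4.29 in the E arrays, against 3.49, 3.66 and 3.91 in the DMSO arrays, a rise of 0.76 (adjusted p = 0.0019). MIR30C2 rose by 0.72 (adjusted p = 0.0137), a call lost after quantile normalization, after median centring and without the first DMSO or the third E array. MIR4534, within POLR2F, measured 6.21, 6.32 and 5.87 in the E arrays, against 7.12, 7.50 and 6.82 in the DMSO arrays, a fall of 1.02 (adjusted p = 0.000898) with its host at -0.04. No E array overlapped a DMSO array for MIR548F2, MIR4324 or MIR4534. Of the 33, 29 lie within another gene, taken as host by position alone, whatever its strand. For 15 a host was measured and 8 hosts were called, 7 in the same direction as the microRNA gene and 1 in the opposite direction. Among all genes 12.5% were called higher and 3.54% lower, and whether hosts differed from these shares was not tested. A probe set within a host gene may also detect the host's own transcript.

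The effect of entinostat was then set beside its effect in cells that also received dabrafenib and trametinib, in DTE against DT, a comparison that shares no array with E against DMSO. There 2014 genes were called higher (13.8%) and 742 lower (5.09%), with 473 lower without the second DT array. After quantile normalization these counts were 1786 (12.2%) and 1752 (12%), and after median centring 1364 (9.36%) and 2245 (15.4%). Genes higher in both comparisons numbered 1172, which was 64.2% of the E list and 58.2% of the DTE list. Genes lower in both numbered 266, which was 51.6% of the E list and 35.8% of the DTE list. Opposite calls were found for 7 genes higher in E and 10 genes lower in E. Of the 337 genes that rose at least 2-fold in E, 308 were called higher in DTE against DT and 0 lower. Of the 18 falls, 14 were called lower there.

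A test of the difference between the 2 effects, fitted in the same model, called 151 genes (1.04%), and 93 to 100 without the third DMSO, the first or the third DT, the third E or the second DTE array. IL24 rose by 2.48 in DTE against DT and by 3.80 in E against DMSO, a difference of -1.32 (adjusted p = 0.0146). CD24 rose by 2.01 and by 3.45, a difference of -1.44 (adjusted p = 0.00183). UNC13A stood at 0.19 in DTE against DT and at 1.67 in E against DMSO, a difference of -1.48 (adjusted p = 0.000614). These 3 genes had the smaller effect with dabrafenib and trametinib present, as did 20 of the 25 genes among the 2-fold rises whose effects differed. LRP2 was among the 5 with the larger effect there, 3.16 against 1.68, a difference of 1.48 (adjusted p = 0.000196). The 2-fold rises were chosen for their change in E, which the difference subtracts, so the count of 20 against 5 is no test. IER3, an immediate early gene, rose by 1.96 with the other drugs and by 0.67 without, a difference of 1.29 (adjusted p = 0.0006). SOX2 was at 0.54 in DTE against DT and -0.73 in E against DMSO, a difference of 1.27 (adjusted p = 0.00215). PRR7-AS1 changed by -0.86 and by -1.89, a difference of 1.03 (adjusted p = 0.0108).

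**Figure D5:**
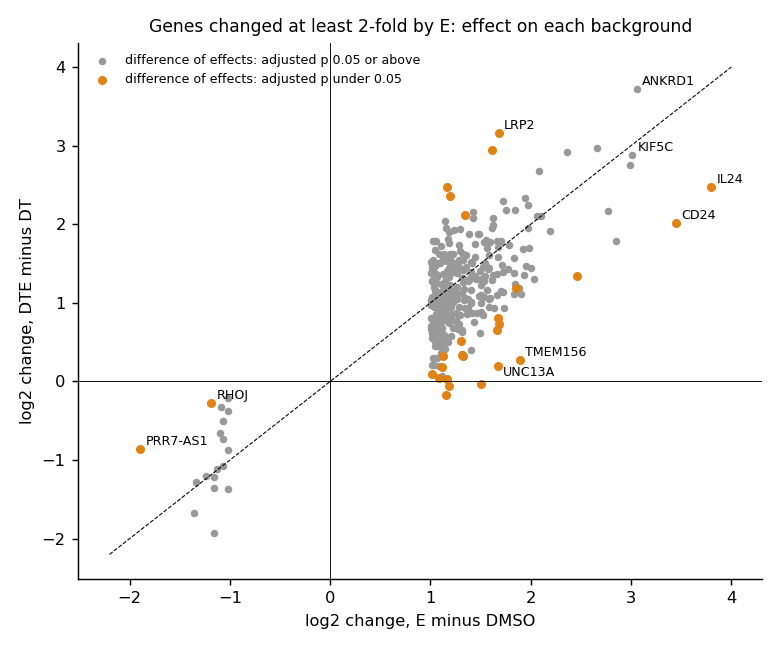
Genes changed at least 2-fold in E against DMSO (337 rises and 18 falls), with the change in DTE minus DT on the vertical axis and the change in E minus DMSO on the horizontal axis, both log2. The dashed line marks equal effects and orange points are genes whose 2 effects differed at an adjusted p under 0.05, such as IL24 and CD24 below the line and LRP2 above it; genes on the horizontal axis were chosen for their change in E, so a cloud below the line is no test.

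Some lists differed in count between the 2 comparisons, without a test of the difference over a list. In DTE against DT, 5 acetyltransferases and readers were lower and 1 higher, beside 8 and 0 in E against DMSO. REST targets were higher for 9 and lower for 0, beside 12 and 0. Cadherins were higher for 17 of 49, beside 22. Of the mitotic list 11 genes were lower, beside 18. Melanocyte lineage genes were lower for 12 and higher for 1, beside 4 and 4.

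Some markers of other cell types were called higher in E and most were not called, and their part in the results above was not tested. Of 15 epithelial markers, 4 were called higher and 0 lower, and their summed linear intensity ranged over 315 to 340 in the E arrays and 214 to 275 in the DMSO arrays. KRT7, ESRP1 and GRHL2 lay under the lower quartile in all 6 arrays, and EPCAM rose by 0.73 from a DMSO mean of 2.93, under it too. Of 7 fibroblast markers 3 were higher, with sums of 387 to 439 in E and 269 to 303 in DMSO, LUM and THY1 among them with rises of 0.93 and 0.69, while DCN, TWIST2 and DPT were under the lower quartile in all 6 arrays. Of 9 endothelial markers 2 were higher, KDR and FLT1 with rises of 1.19 and 1.12. The sums were 261 to 288 in E and 168 to 184 in DMSO, and VWF, TIE1, MMRN1 and EMCN stayed under the lower quartile. Of 7 blood cell markers 2 were higher, CD68 by 0.63, with sums of 671 to 782 in E and 482 to 513 in DMSO. CD68 alone made up 87.3% to 89.3% of the sum in E and 83.5% to 85.7% in DMSO, and without it the sums were 83.3 to 85.3 in E and 72.3 to 79.3 in DMSO. CD14 and PPBP stayed under the lower quartile.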

How the data were processed

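The authors deposited 1 linear intensity per probe set and array, from 1.88 to 8728, with 0 ERCC-named probe sets although the labels' protocols describe a spike-in. RMA and the Transcriptome Analysis Console are named in the submitters' processing notes. Versions and a genome build for the arrays are not given in the sources used here. Array medians differed, and further scaling is unknown. The number of arrays limits the precision.

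Of 29396 probe sets, 14748 had 1 gene symbol, 0 several and 14648 none. All 14748 symbols were updated by NCBI gene identifier. The brightest probe set stood for each of 156 genes with several, which left 14580 genes. limma 3.58.1 in R 4.3.3 was fitted to log2 intensities of all 12 arrays as 4 group means, and Benjamini-Hochberg adjustment ran over all genes. SE is limma's moderated standard error. The fitting script was tested on simulated data. Counts were repeated on other scales, with other fits and without single arrays.

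The members and gene lists were chosen with earlier results of these data known. The rule for named genes took the 30 largest rises and 20 largest falls among called genes without overlap, up to 3 called in each direction in a list, up to 15 genes rising out of the dim range and genes named whatever their result. Not all are printed. Further list members, partner genes and host genes were named after their values were seen. Dim genes were to be gauged on olfactory receptors, of which 1 was measured, so the lower quartile was used instead, chosen after seeing the data. Lists without measured members were not analysed here. Some list results are not reported here.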

Additional observations from a re-analysis of the deposited data

Results flagged for a closer look

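The following genes had an entinostat effect that differed with dabrafenib and trametinib present, by limma's test of the difference (DTE minus DT, less E minus DMSO, log2, p adjusted over all genes). The effect was smaller with the other drugs for IL24 (difference -1.32, adjusted p = 0.0146), CD24 (-1.44, adjusted p = 0.00183), UNC13A (-1.48, adjusted p = 0.000614), MYOZ2 (-1.13, adjusted p = 0.00952), CPA4 (-1.01, adjusted p = 0.0138), OASL (-0.80, adjusted p = 0.0403) and SEPTIN3 (-0.67, adjusted p = 0.0495). It was larger for LRP2 (1.48, adjusted p = 0.000196) and IER3 (1.29, adjusted p = 0.0006). The falls of PRR7-AS1 (1.03, adjusted p = 0.0108) and RHOJ (0.92, adjusted p = 0.00955) were smaller in DTE against DT. SOX2 (1.27, adjusted p = 0.00215) and HEY1 (1.13, adjusted p = 0.011) had negative changes in E against DMSO and positive ones in DTE against DT. All 3 arrays entered each group. With 1 array left out, the test called 93 to 177 genes in place of 151. Which of the genes listed here then lost their call is not reported here.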

How the results depend on the processing

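The 1825 genes called higher became 1098 after median centring, and the 516 called lower 1232 after quantile normalization and 2372 after median centring. The 337 rises of at least 2-fold became 204 and 176, and the 18 falls 50 after median centring. For DTE against DT the 742 lower calls became 1752 and 2245. The 151 genes whose effect differed became 314 and 267, and 230 when limma let the variance follow intensity. With 1 array left out, the ranges were 1295 to 1910 higher, 303 (without the second DMSO array) to 580 lower, 306 to 388 and 14 to 27 at least 2-fold, 1462 to 2196 higher and 473 to 777 lower in DTE against DT, and 93 to 177 for the differing effect. The replicate number as a block gave 1936 higher and 575 lower. Combined with quantile normalization, an alternative chosen after seeing the data, it gave 1249 lower, 204 at least 2-fold higher, 1755 lower in DTE against DT and 300 differing. Over genes, deviations of same-numbered E and DMSO arrays from their group means correlated weakly, at 0.0531, 0.0888 and 0.0656. The second array had the highest median in every group, at 4.798 in DMSO, 4.901 in E, 4.603 in DT and 4.689 in DTE. Whether the numbers mark arrays handled together was not tested. CCND1 stood at -0.12 after median centring and between -0.03 and 0.16 with 1 array left out, and after median centring EZH2 at -0.11, MYC and SOX10 at -0.08, REST at -0.07 and TXNIP at -0.01. The cause of these shifts was not tested. Of 158 genes given, 135 kept direction and call under every alternative. Of 4557 list counts under alternatives, 621 moved by over 1.5 times, mostly small counts.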
